A study of Mus musculus with 4 samples.

Results

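The mitochondrial respiratory chain and ATP synthase are built from subunits of nuclear and mitochondrial genes, and the nuclear-encoded subunits were examined here in Th17 cells of the mouse, a helper T cell lineage known for making interleukin 17. Rows of the deposited table were taken by gene symbol: the Nduf subunit genes, Sdha to Sdhd, the Uqcr genes with Cyc1, Cycs, the Cox4 to Cox8 genes and the Atp5 genes. This gave 85 of 17921 genes, of which 36 belong to complex I, 4 to complex II, 9 to complex III, 18 to complex IV and 17 to complex V, with Cycs (cytochrome c) on its own. Ndufa4, which is now placed in complex IV despite its name, and the related factor Cox7a2l were counted with complex IV. The Th17 cells came from 2 wild-type (WT) mice and 2 mice lacking PRAK (KO), a p38-regulated kinase encoded by Mapkapk5. In both groups naive CD4+ T cells were enriched and polarised to Th17 cells in culture, and all cells were harvested at 72 h (day 3) for total RNA. There was 1 library per mouse, named WT 1 and WT 2 or KO 1 and KO 2 by the labels' mouse numbers. The sources used here do not give the age, sex or strain of the mice or which part of Mapkapk5 was deleted.

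Complexes I and II pass electrons from NADH and succinate to ubiquinone, complex III passes them to cytochrome c, and complex IV passes them to oxygen. Complexes I, III and IV pump protons, and complex V, the ATP synthase, uses the resulting gradient to make ATP. Some subunits of complexes IV and V exist as isoforms from separate genes that differ between tissues or with oxygen supply. The best known of these is COX4-2, from Cox4i2, which can take the place of the common COX4-1 when oxygen is low. By the title of the series, the study concerns PRAK, NRF2, redox balance and glycolysis in Th17 differentiation, and mitochondrial respiration is the other main route to ATP in these cells.

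The 4 libraries held between 19418012 and 20125124 expected counts. Mapkapk5 checked the labels: it lay at 35.6 and 38.4 CPM (counts scaled per 1e+06 with TMM) in the WT mice and at 20.04 and 21.6 in the KO mice, so it was reduced but still detected. Its log2 fold change was -0.83 ± 0.13 (SE; edgeR quasi-likelihood test, adjusted p = 0.0194). The change was -0.89 without WT 1 and -0.78 without WT 2, and it was not called in either fit. Of 5 T cell markers none was called (edgeR, 1 at an unadjusted p under 0.05, 1 with DESeq2), and their summed level was between 1449 and 2219 CPM. Of the Th17 markers, the cytokine gene Il17a was at 474 and 418 CPM in WT, 643 in KO 1 and 237 in KO 2 (adjusted p = 0.981), and Il17f was at 2224 and 1987 CPM in WT, 1994 in KO 1 and 637 in KO 2 (adjusted p = 0.410). The receptor gene Ccr6 rose, with an adjusted p of 0.00963, from 22.9 and 22.5 CPM in WT to 53.2 and 45.4 in KO, and Il23r fell, with an adjusted p of 0.0390, from 31.2 and 31.1 CPM in WT to 12.7 and 5.52 in KO. Markers of myeloid cells were summed at 64.9 and 90.02 CPM in WT and at 128 and 278 CPM in KO, with 6 of 10 markers higher and none at 0 in all libraries. Markers of CD8 T and NK cells were summed at 174 and 324 CPM in WT and 878 and 493 in KO (1 of 5 tested higher). Gzmb was the largest part of that sum in every library, at 118 and 190 CPM in WT and 530 and 201 in KO. Cd8a was at 11.8 and 49.1 CPM in WT and 185 and 104 in KO. B cell markers were summed at 26.3 and 69.5 CPM in WT and 103 and 86.9 in KO (1 of 5 higher). Among all genes tested, 5.14% were called higher in KO. Erythroid markers were summed at 7.01 CPM or less in every library. The part of these cells in the results below was not tested, and in such bulk libraries fewer cells of a type and less RNA per cell cannot be told apart.

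As a set, the respiratory chain subunits stayed near their WT level in KO cells. Of 83 subunits with enough counts to test, 1 rose (Atp5g1), 2 fell (Cox4i2 and Ndufv3) and 80 did not pass an adjusted p of 0.05, while 5.14% of the 12680 genes tested were called higher and 8.23% lower. The remaining 2 of the 85, Cox7b2 and Cox8b, had 0 counts in all 4 libraries. The median log2 fold change was 0.02 over the subunits and 0.02 over all genes tested. The change was smaller than 0.5 in log2 units for 78 of 83 subunits (94.0%), against 67.5% of all genes tested and 79.3% of the 4526 genes whose mean CPM reached 50.3, the lower quartile of the subunits. The 95% interval of the log2 fold change lay within -1 and 1, a 2-fold change either way, for 76 of 83 subunits (91.6%), against 61.8% of all genes tested and 83.8% of those 4526 genes. CPM values of the genotypes did not overlap for 36 subunits, 20 higher and 16 lower in KO (43.4%), against 31.7% higher, 31.4% lower and 63% in all for the genes tested. A subunit that did not pass may still differ by less than its interval allows.

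**Figure D1:**
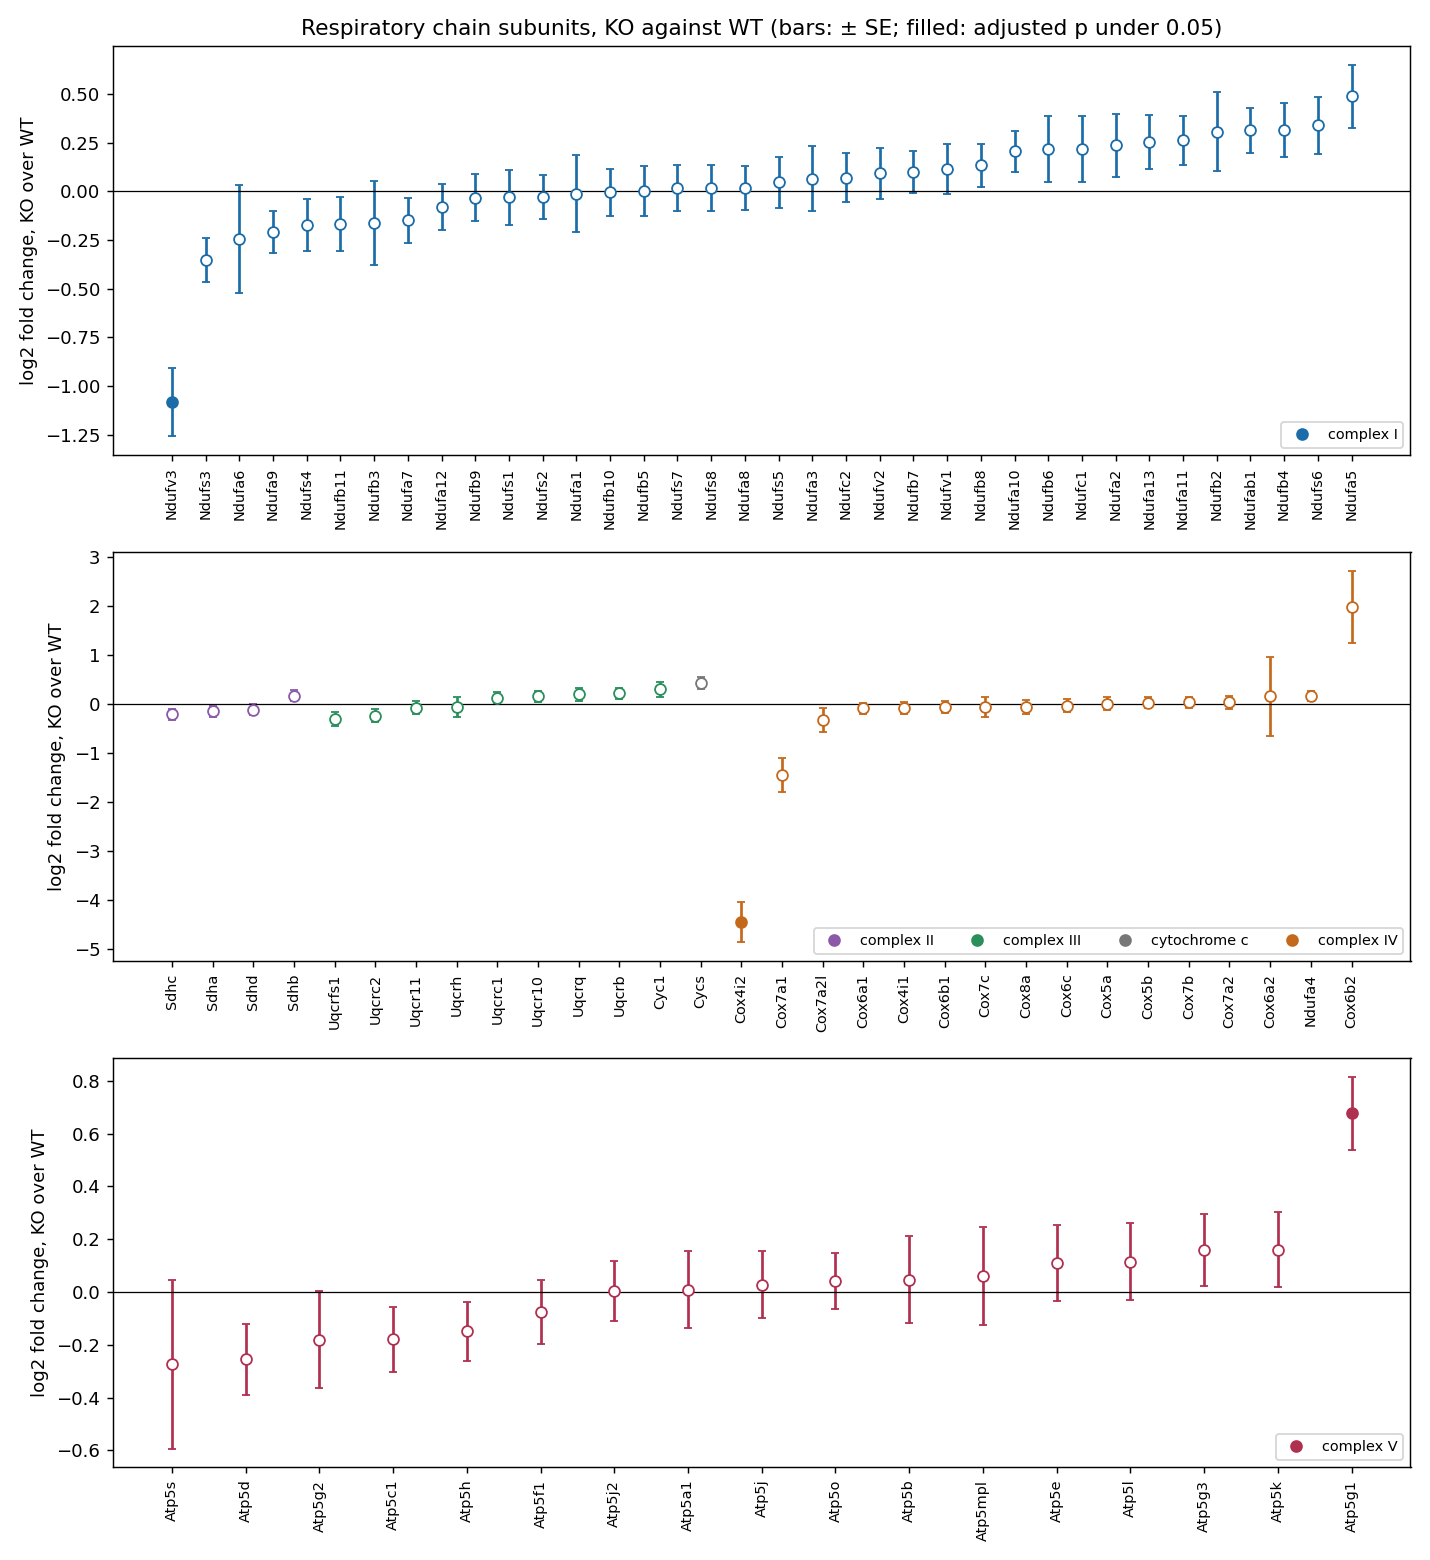
Log2 fold change of KO over WT (y axis, with SE as bars) for the 83 subunits tested, grouped and coloured by complex; the 3 panels have different y scales. Filled points passed an adjusted p of 0.05: Ndufv3 at -1.08, Cox4i2 at -4.45 and Atp5g1 at 0.68, while 78 of the 83 points lie within 0.5 of the line at 0.

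Upstream stretches are shown for the called subunits with an entry, Ndufv3 and Atp5g1, and for Cox7a1, whose KO values were low for Ndufv3 and Cox7a1 and high for Atp5g1. They run 5′ to 3′ on the gene's strand up to the base before the gene, from chr17:31519865-31520114 (plus strand) for Ndufv3, chr11:96075695-96075881 (minus strand) for Atp5g1 and chr7:30183921-30184170 (plus strand) for Cox7a1, and capitals mark the core letters bound by HIF, which are ACGTG or, with another first base allowed, also GCGTG, on either strand.
Ndufv3: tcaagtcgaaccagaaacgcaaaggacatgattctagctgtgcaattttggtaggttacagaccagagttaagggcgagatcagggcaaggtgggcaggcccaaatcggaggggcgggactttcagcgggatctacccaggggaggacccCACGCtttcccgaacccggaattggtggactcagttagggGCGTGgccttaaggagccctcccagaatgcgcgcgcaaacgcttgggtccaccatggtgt
Atp5g1: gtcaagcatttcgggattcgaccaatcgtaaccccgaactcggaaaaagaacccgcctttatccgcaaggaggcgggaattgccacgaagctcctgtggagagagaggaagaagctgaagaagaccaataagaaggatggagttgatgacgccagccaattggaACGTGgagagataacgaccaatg
Cox7a1: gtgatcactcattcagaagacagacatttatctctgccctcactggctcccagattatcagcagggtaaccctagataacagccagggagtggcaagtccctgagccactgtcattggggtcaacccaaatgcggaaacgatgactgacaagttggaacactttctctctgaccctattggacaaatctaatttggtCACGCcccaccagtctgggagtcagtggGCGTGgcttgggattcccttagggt
All 3 stretches held such letters, which are common: in windows around the start, 21.8% of all genes held ACGTG and 35.2% held GCGTG. A link between these letters and the expression changes was not tested. Cox4i1 and Cox4i2 had no entry.

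With all mice kept, the settings changed the counts little. Library size alone gave 2 higher and 2 lower subunits (background 7.24% and 6.81%), DESeq2 gave 2 and 2 (7.79% and 10.3%), and no filter on low counts gave 1 and 2 (3.93% and 6.51%). A filter at a mean of 5 CPM gave 1 and 1 (4.82% and 8.35%), the replicate block 2 and 3 (10.6% and 12.6%), and limma on log2(TPM + 1) 1 and 3 (5.25% and 6.44%). The genes called were not always the same: the higher gene with limma was Ndufa5, not Atp5g1, and the filter at 5 CPM left Cox4i2 untested. The counts depended more on which mice were kept. Without WT 1 or without WT 2 the subunits held 0 higher and 2 lower calls (background 1.59% and 3.87% of genes without WT 1, 1.85% and 3.43% without WT 2). Without KO 1 they held 12 higher and 5 lower (background 17.3% and 18.7%), and without KO 2 they held 6 higher and 14 lower (background 22.2% and 24%). The calls without KO 1 and those without KO 2 had 3 higher genes in common, Atp5g1, Cycs and Ndufa5, and 4 lower genes, Cox4i2, Cox7a1, Ndufs3 and Ndufv3. In those fits a single library stood for the KO genotype and was assumed to vary like the WT pair.

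Summed over each complex, transcript levels differed little between the genotypes. TPM, the authors' length-scaled transcript unit, was used so that genes of different length could be added. All subunits together made up 20760 and 20448 TPM in the WT mice, against 21778 in KO 1 and 21735 in KO 2. The KO libraries were both above the WT libraries, by a log2 ratio of means of 0.08. The log2 ratio was also 0.08 for complex I, 0.04 for complex II, 0.13 for complex III, 0.04 for complex IV and 0.09 for complex V. By gene rather than by sum, the median change on the log2(TPM + 1) scale was 0.12 for the subunits and 0.10 for all genes. For complex II the libraries overlapped, with 613 and 567 TPM in WT and 624 and 592 in KO. Those of complex IV overlapped too, with 5659 and 5637 TPM in WT and 5643 and 5983 in KO.

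**Figure D2:**
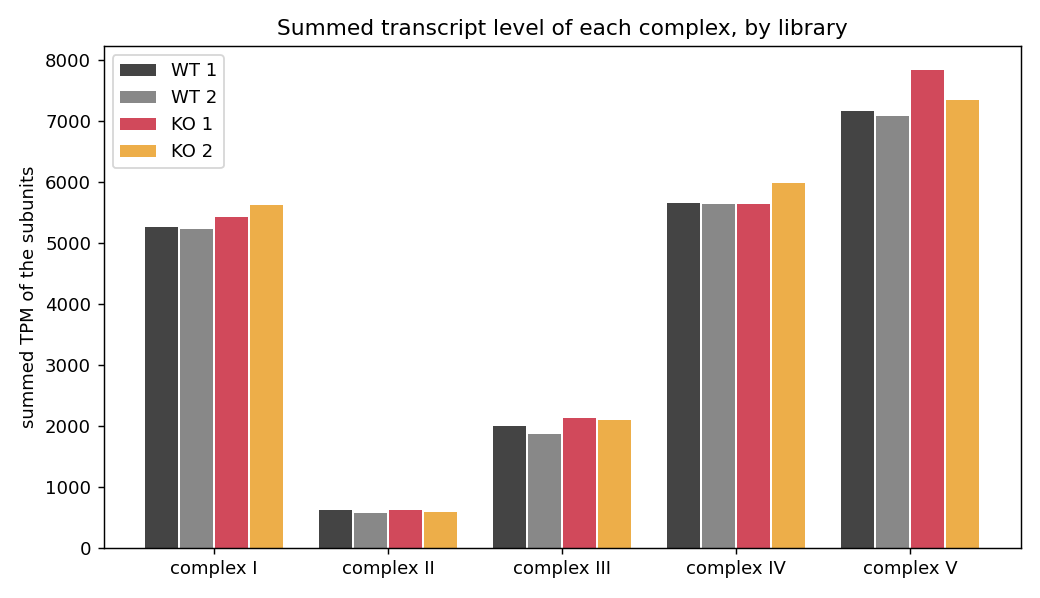
Summed TPM of the subunits of each complex (y axis) in each of the 4 libraries (bars). Complex V is highest, from 7071 TPM in WT 2 to 7836 in KO 1, and complex II lowest, from 567 TPM in WT 2 to 624 in KO 1.

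Within a library the subunits spanned a wide range of levels. Atp5b, the catalytic beta subunit of the ATP synthase, had the highest mean over the 4 libraries at 1256 TPM, followed by Cox6a1 at 935 and Cox8a at 927. The median subunit of complex I lay at 140 TPM, of complex II at 145, of complex III at 194, of complex IV at 305 and of complex V at 384. Apart from the silent Cox7b2 and Cox8b, the lowest were Atp5s at 4.19 TPM, a coupling factor gene that is not a structural subunit, and Cox6a2 at 6.92.

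Complex I, the entry point for electrons of NADH, had 1 call, lower in KO, among 36 subunits (background 8.23% lower), and its median log2 fold change was 0.03. Ndufv3 encodes a small accessory subunit of the arm that binds NADH. The WT mice were at 130 and 152 CPM and the KO mice at 57.3 and 75.9 CPM, so both KO libraries lay below both WT libraries. The log2 fold change was -1.08 ± 0.18 (SE, n = 2 mice per genotype, edgeR adjusted p = 0.0204). The call was kept without each library in turn, with log2 fold changes between -1.30 and -0.89. The gene lies on chromosome 17 from 31520115 to 31531326 (GRCm38.p6) and no other RefSeq gene overlaps it.

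No other complex I subunit passed. The 7 nuclear-encoded core subunits, which hold the flavin and the iron-sulfur clusters or line the quinone site, had a median log2 fold change of 0.02 and no call (edgeR, with 1 at an unadjusted p under 0.05, and 0 with DESeq2). Ndufv1, which binds the flavin, was at 66.1 and 65.8 CPM in WT and 77.1 and 65.7 in KO (a log2 change of 0.11, adjusted p = 0.582). Ndufs1, the largest subunit, was at 65.9 and 60.9 CPM in WT and 68.0 and 56.1 in KO (-0.03, adjusted p = 0.899). Ndufs3 had the lowest value of the core subunits, with 84.2 and 85.5 CPM in WT and 69.3 and 63.5 in KO (-0.35 ± 0.11 SE, adjusted p = 0.0992), and it did not pass. The 29 accessory subunits had a median of 0.07, with Ndufa5 at the top: 11.9 and 13.3 CPM in WT against 17.2 and 18.2 in KO (0.49 ± 0.16 SE, adjusted p = 0.108). Ndufa5 passed with limma on log2(TPM + 1) (adjusted p = 0.0444) but not with DESeq2 (0.180) or with the replicate block in edgeR (0.0992).

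Complex II, succinate dehydrogenase, also works in the TCA cycle and is made from nuclear genes alone. None of its 4 subunits passed in edgeR, by adjusted or unadjusted p, nor with DESeq2 (0 of 4). The flavoprotein gene Sdha was at 230 and 215 CPM in WT and 193 and 206 in KO (a log2 change of -0.16, adjusted p = 0.411). Sdhc, a membrane anchor, had the lowest value, with 103 and 98.4 CPM in WT and 88.7 and 84.3 in KO (-0.22, adjusted p = 0.240). Sdhb, the iron-sulfur subunit, had the highest, with 109.7 and 103.9 CPM in WT and 117 and 123 in KO (0.16, adjusted p = 0.356). The genotypes did not overlap in any of the 4 genes, as in 63% of all genes tested, and each 95% interval held 0.

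In complex III no subunit of 9 passed either (edgeR, 0 at an unadjusted p under 0.05, and 0 with DESeq2). Its pair of electron-carrying nuclear subunits lay on opposite sides of 0. Uqcrfs1, the Rieske iron-sulfur protein, was at 134 and 117 CPM in WT and 109 and 93.6 in KO (a log2 change of -0.31, adjusted p = 0.192). Cyc1, cytochrome c1, was at 109 and 89.0 CPM in WT and 129 and 114 in KO (0.29, adjusted p = 0.240). These were the lowest and the highest values of the complex.

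Cycs encodes cytochrome c, which carries electrons between complexes III and IV and also takes part in apoptosis once released from mitochondria. The WT mice were at 132 and 137 CPM and the KO mice at 192 (KO 1) and 166 (KO 2), with both KO libraries above both WT libraries. The log2 fold change was 0.42 ± 0.12 (SE), and it did not pass (edgeR adjusted p = 0.0846). It passed with scaling by library size alone (adjusted p = 0.0494) and with the mouse number as a replicate block (0.0465). It did not pass with DESeq2 (adjusted p = 0.0538) or limma on log2(TPM + 1) (0.0951). Nor did it pass without a low-count filter (edgeR adjusted p = 0.0999) or with the filter at a mean of 5 CPM (0.0806). Its expected counts were not all whole, as RSEM gives where reads also match other sequences, and its value is uncertain to that extent.

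In complex IV, cytochrome c oxidase, the abundant subunits did not pass, and the only call was a low-abundance isoform. Of 16 subunits tested 1 fell (background 8.23%) and 15 did not pass, and the median log2 fold change was -0.05. Cox4i2 had 104.13 and 129 counts in the WT mice, against 7 in KO 1 and 4 in KO 2. These correspond to 5.33, 6.74, 0.339 and 0.199 CPM. Both KO libraries were far below both WT libraries and rested on few counts. The log2 fold change was -4.45 ± 0.42 (SE, edgeR adjusted p = 0.00505), and it lay between -4.88 and -4.14 when each library was left out in turn, with the call kept. With limma on log2(TPM + 1) it was -3.40 (adjusted p = 0.00339), on a scale that understates changes of low genes. With the filter at a mean of 5 CPM, Cox4i2 was not tested.

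The common isoform Cox4i1 was at 209 and 197 CPM in WT and 183 and 199 in KO (a log2 change of -0.09, adjusted p = 0.656, and 0.01 with scaling by library size alone). Cox4i2 supplied 2.43% of the TPM of both genes in WT 1 and 3.36% in WT 2, but 0.161% in KO 1 and 0.0515% in KO 2. Cox4i2 was thus a small share of the COX4 transcripts in every library. Cox4i2 lies on chromosome 2 from 152753916 to 152765039 (GRCm38.p6), where Bcl2l1 and Gm32057 overlap it in RefSeq, and its count was not whole in WT 1. Bcl2l1, an antiapoptotic gene, rose, with 126 and 124 CPM in WT and 214 and 266 in KO (0.94, adjusted p = 0.0168).

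Cox7a1, the heart and muscle form of another complex IV subunit, also lay lower in both KO libraries. It had 54 and 66 counts in WT and 26 and 20 in KO, or 2.77, 3.45, 1.26 and 0.994 CPM. The log2 fold change was -1.46 ± 0.35 (SE) and just missed the threshold (edgeR adjusted p = 0.0507). It passed with limma on log2(TPM + 1) (adjusted p = 0.0200) and with the replicate block (0.0265) but not with DESeq2 (0.0659). The liver form Cox7a2 was at 67.0 and 66.9 CPM in WT and 62.2 and 74.9 in KO (0.03, adjusted p = 0.888). Cox7a2l, a related protein that helps join complexes III and IV into supercomplexes, was at 225 and 240 CPM in WT and 141 and 229 in KO (-0.33, adjusted p = 0.388), low in KO 1 alone. Cox7a1 made up 2.65% and 3.13% of the TPM of the 3 genes in WT, and 1.69% and 0.923% in KO.

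The COX6A and COX6B families gave no call with edgeR, and COX6B gave 1 (Cox6b2) with DESeq2. Cox6b2, a form best known from testis, was at 2.82 and 3.66 CPM in WT, 4.26 in KO 1 and 21.3 in KO 2, so KO 2 stood apart from the other 3 libraries. Its log2 fold change was 1.98 ± 0.74 (SE, adjusted p = 0.138), 0.39 without KO 2 and 2.71 without KO 1, where it passed (adjusted p = 2.32e-06), as it did with DESeq2 (0.0165). In KO 2 Cox6b2 held 14.0% of the TPM it shares with Cox6b1, against 2.08% to 2.98% in the other libraries. Cox6b1 itself lay at 129 and 146 CPM in WT and 133 and 128 in KO (-0.07, adjusted p = 0.723, and 0.03 with library size alone). Cox6a2, the muscle form of COX6A, had 11 and 74 counts in WT and 46 and 54 in KO, so the WT mice spanned the KO values (0.15 ± 0.80 SE, adjusted p = 0.919). It was -0.66 without WT 1 and 2.10 without WT 2. Cox6a1 was at 257 and 261 CPM in WT and 246 and 240 in KO (-0.09, adjusted p = 0.627, and 0.01 with library size alone).

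Other isoforms were at or near 0 counts. Ndufa4l2, a relative of Ndufa4 known to be induced by HIF-1, had 3 and 0 counts in the WT mice and 0 and 1 in the KO mice, and was not tested. Ndufa4 itself was at 72.7 and 71.8 CPM in WT and 81.4 and 79.5 in KO (a log2 change of 0.16, adjusted p = 0.375). No switch between the pair could be seen at this depth. Cox7b was at 97.5 and 93.4 CPM in WT and 96.8 and 97.8 in KO (0.03), with its testis form Cox7b2 at 0 counts. Cox8a was at 250.1 and 271 CPM in WT and 223 and 275 in KO (-0.06, and 0.03 with library size alone), with its muscle form Cox8b at 0 counts. Cox5a, a nuclear-encoded subunit with no such partner, was at 128 and 113 CPM in WT and 129 and 112 in KO (0.00, adjusted p = 0.990).

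**Figure D3:**
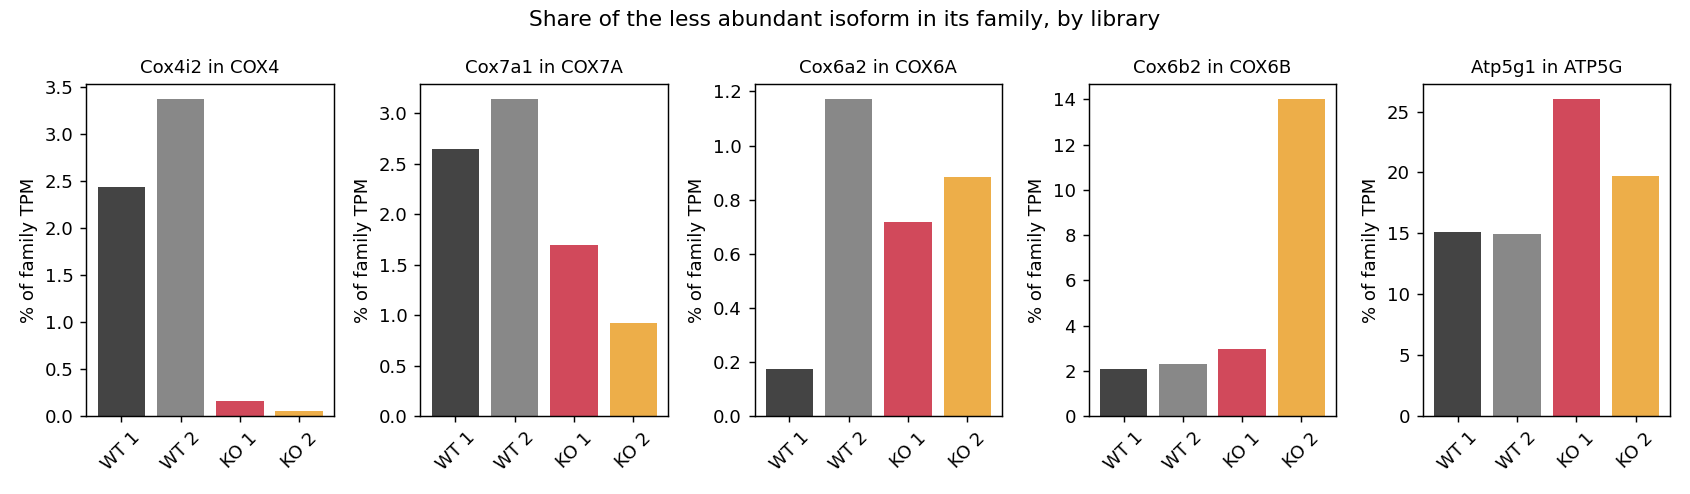
Share of the summed TPM of its family (y axis, percent, own scale in each panel) that 1 isoform held in each of the 4 libraries (bars). Cox4i2 held 2.43% and 3.36% in WT and 0.161% and 0.0515% in KO, Cox6b2 stood out in KO 2 at 14.0%, and Atp5g1 went from 15.1% and 15.0% in WT to 26.0% and 19.7% in KO.

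In complex V 1 of 17 genes rose (background 5.14%), and the median log2 fold change was 0.03. Atp5g1 is 1 of 3 genes that encode the same mature c subunit, the ring that turns as protons pass the membrane part of the ATP synthase, with different import sequences. The WT mice were at 80.2 and 79.6 CPM and the KO mice at 141 (KO 1) and 114 (KO 2), above WT in both KO libraries. The log2 fold change was 0.68 ± 0.14 (SE, edgeR adjusted p = 0.0353). It was not called without WT 1 or without WT 2, where the log2 fold change stayed at 0.68 and 0.67. Nor was it called with limma on log2(TPM + 1) (adjusted p = 0.0502). The log2 fold change was 0.52 without KO 1 and 0.81 without KO 2. The gene lies on chromosome 11 from 96072793 to 96075694 (GRCm38.p6), with no overlapping RefSeq gene.

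The other genes for the c subunit did not pass. Atp5g2, the most abundant of the 3, was at 232 and 251 CPM in WT and 178 and 248 in KO (a log2 change of -0.18, adjusted p = 0.543). Atp5g3 was at 143 and 123 CPM in WT and 159 and 139 in KO (0.16, adjusted p = 0.468). Atp5g1 held 15.1% and 15.0% of the TPM of the 3 genes in WT, and 26.0% and 19.7% in KO. The main catalytic subunits did not pass either, as Atp5a1 was at 745 and 688 CPM in WT and 763 and 678 in KO (0.01, adjusted p = 0.974), and Atp5b at 1254 and 1196 in WT and 1380 and 1152 in KO (0.05, adjusted p = 0.872). Atp5s had the lowest value of the group (-0.27, adjusted p = 0.601).

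**Figure D4:**
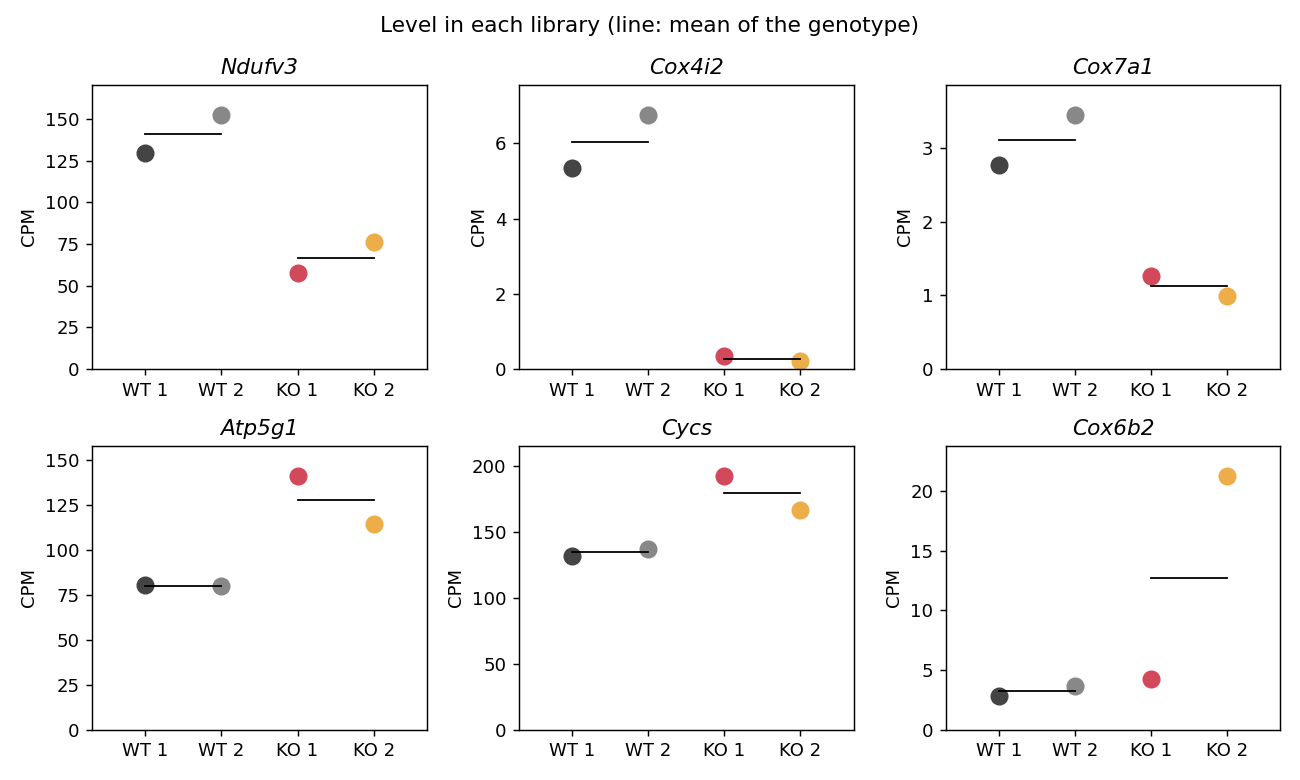
CPM (y axis, from 0) in each of the 4 libraries (points, with the genotype mean as a line) for 6 subunits. In Ndufv3, Cox4i2 and Cox7a1 both KO libraries lie below both WT libraries, in Atp5g1 and Cycs both lie above, and in Cox6b2 KO 2 alone stands apart at 21.3 CPM.

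The KO mice differed from each other more than the WT mice did, in the subunits as in all genes. The median absolute log2 ratio between KO 2 and KO 1 was 0.21 over the 83 subunits, and that between WT 2 and WT 1 was 0.09, against 0.28 and 0.12 over all genes tested and 0.22 and 0.081 over the 4526 genes of like level. The KO libraries differed by more than 0.5 in log2 units for 9 subunits (10.8%, against 25.8% of all genes and 13.8% of those 4526), 8 higher in KO 2 and 1, Cox4i2, higher in KO 1. Cox4i2 rested on 7 counts in KO 1 and 4 in KO 2. By the same margin, 1996 of all genes tested were higher in KO 2 and 1277 in KO 1. Of those 4526 genes, 284 were higher in KO 2 and 340 in KO 1. The largest gaps after Cox6b2, named after their values were seen, were those of Ndufa6 (43.2 and 76.5 CPM), Cox7a2l and Uqcrh (69.8 and 105.6 CPM). In these 3 genes KO 1 was below both WT libraries and KO 2 was not.

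**Figure D5:**
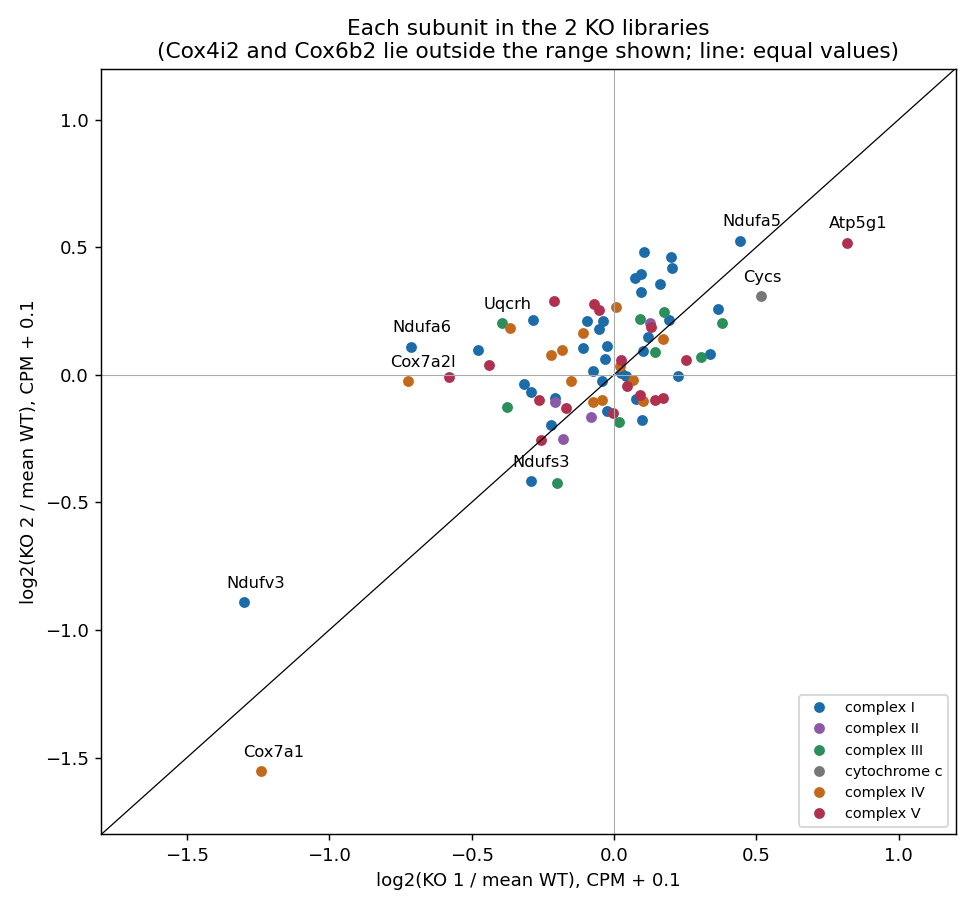
Log2 ratio of KO 1 (x axis) and KO 2 (y axis) to the WT mean, with 0.1 CPM added to each value, for the subunits tested (points, coloured by complex; Cox4i2 and Cox6b2 lie outside the range). Most points lie within 0.5 of 0 on both axes, Ndufv3 and Cox7a1 are low in both mice, and Ndufa6 and Cox7a2l are low in KO 1 alone.

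Of 53 genes tested on the lists of assembly factors of complexes I to V, 2 rose, 0 fell and 51 did not pass (background 5.14% and 8.23%), and the median change was 0.08 in log2 units. The complex V list also holds the inhibitor Atpif1, the small synthase protein gene Usmg5 and Atp5mpl, which is counted among the subunits too, and none of these passed. Ndufaf4, a complex I assembly factor, rose from 15.1 and 14.8 CPM in WT to 32.4 and 25.1 in KO (0.94 ± 0.18 SE, adjusted p = 0.0292). Its change was 0.95 without WT 1 and 0.93 without WT 2, and it was not called in either fit. Atpaf2, which helps assemble the F1 part of the ATP synthase, rose from 27.6 and 27.2 CPM to 46.5 and 39.5 (0.65 ± 0.14 SE, adjusted p = 0.0370). Its change was 0.66 without WT 1 and 0.63 without WT 2, again with no call. For Ndufaf4 and Atpaf2, as for Atp5g1 and 31.7% of all genes tested, both KO libraries lay above both WT libraries. In RefSeq Gm46848 overlaps Ndufaf4, and Gid4 overlaps Atpaf2.

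Higd1a, a small inner-membrane protein that binds complex IV and is known to be induced by low oxygen, fell. It was at 98.6 and 104.1 CPM in WT and 42.8 and 42.3 in KO, with little spread within either genotype (log2 fold change -1.25 ± 0.11 SE, adjusted p = 0.00470). The call was kept without each library in turn. It was the 1 call among 4 supercomplex and cytochrome c factors (background 8.23% lower), a list that also holds Cox7a2l. Gm47112 overlaps Higd1a in RefSeq.

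Of 15 genes for the upkeep and transcription of mitochondrial DNA 1 rose and 14 did not pass (background 5.14% higher and 8.23% lower), with a median of -0.01. Tfb1m, which methylates mitochondrial ribosomal RNA, was at 5.49 and 5.70 CPM in WT and 9.97 and 10.7 in KO (a log2 change of 0.88 ± 0.20 SE, adjusted p = 0.0458, and 0.0517 with the filter at a mean of 5 CPM). Its change was 0.85 without WT 1 and 0.91 without WT 2, and it was not called in either fit. Of 14 transcriptional regulators of respiratory genes, among them Nrf1, Gabpa and Esrra, 0 rose and 0 fell with edgeR (5 at an unadjusted p under 0.05, and 3 called with DESeq2), and the median was 0.01. Nrf1, which binds many of these promoters, was at 55.5 and 49.9 CPM in WT and 65.7 and 51.9 in KO (0.16, adjusted p = 0.532). The transcripts of the mitochondrial genome, which encode the other subunits of complexes I, III, IV and V, were not analysed here.

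The promoters of the subunits, some of which are printed with the first results, were searched for short motifs, each found in part of them. A window from 250 bases before to 50 after the start was given in the RefSeq table (GRCm38.p6) for 70 of the 85 genes. The half-site of NRF1 (TGCGCA, its own reverse complement) was found in 18 of 70 (25.7%), against 8.79% of the 27025 genes with such windows. The core of ETS factors such as GABP (CCGGAAG, either strand) was found in 16 (22.9%, against 9.93%), and the YY1 motif (AAGATGGC, either strand) in 10 (14.3%, against 3.19%). The core letters bound by HIF, searched on either strand, were found in 19 (27.1%, against 21.8%) as ACGTG and in 38 (54.3%, against 35.2%) as GCGTG. The first form also lies within the E-box bound by MYC and USF, and the windows of the subunits were 57.7% G or C, against 53.8% overall. A match describes letters only and is not a binding site. The motifs were chosen after the expression values were seen.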

How the data were processed

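RNA was measured in Th17 cells of 2 WT and 2 KO mice, 1 library each. The expected counts were deposited by the authors, and per the submitters' processing notes RSEM 1.2.12, HISAT2 2.0.4 and Bowtie2 2.2.5 were used with GRCm38.p6. TPM and FPKM values were scaled by the authors for gene length and library, per the file headers. The sources used here give neither strandedness nor an annotation release. Of the count values 69.35% were whole.

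Expected counts were rounded, filtered with filterByExpr of edgeR 4.0.16 (minimum count 10, minimum total 15, leaving 12680 genes), scaled with TMM and fitted by genotype with the robust quasi-likelihood test. Benjamini-Hochberg adjustment ran over all genes tested, and an adjusted p under 0.05 was called. SEs were the absolute log2 fold change over the root of F, and 95% intervals used 2 residual and a median of 3.58 prior degrees of freedom. Replicates were separate mice, per the labels.

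DESeq2 1.42.0, limma 3.58.1 on log2(TPM + 1) for genes with a mean of at least 1 TPM, other filters and scalings, a replicate block and leaving out each library were alternatives. The members and lists were chosen with earlier results of these data known. Named are Mapkapk5, every called subunit, the highest and lowest of each complex, the core subunits, the isoform families and the called genes of the other lists; others were chosen after their values were seen. A further Th17 marker is not reported here. Without strand, overlapping genes cannot be told apart. Positions came from RefSeq, with 85 of 85 subunits matched by gene ID. Of 73 promoter windows checked, 64 had bases after the start found in a GENCODE M21 transcript. On simulated data over 12680 genes for KO against WT, edgeR recovered 55 of 100 genes changed by 1 in log2 units and 91 of 100 changed by 2, with 4 false calls. Both simulated genotypes had the same spread, while the KO mice here differed more than the WT mice, so these rates may not hold for the data.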

Additional observations from a re-analysis of the deposited data

How the results depend on the processing

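The 2 mice per genotype and, for Cox4i2, Cox7a1, Cox6a2 and Ppargc1a, the low counts limited the precision. Over the alternatives that kept all libraries, subunits called higher numbered 1 or 2 (2 with library size alone, with DESeq2 and with the replicate block) and those called lower 1 to 3 (1 with the filter at 5 CPM, where Cox4i2 was not tested, and 3 with the replicate block and limma). With 1 library left out they ranged from 0 to 12 higher and from 2 to 14 lower. The isoform genes called numbered 2, or 1 with the filter at 5 CPM, 3 with the replicate block, 3 with DESeq2 and 1 to 5 with a library left out. Over all genes, 1695 were called, against 2935 with the replicate block, 718 and 693 with WT 1 or WT 2 left out, and 4726 and 5999 with KO 1 or KO 2 left out. With library size alone 918 genes were higher and 864 lower, in place of 652 and 1043.

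Library size alone and limma on log2(TPM + 1) moved the median of all genes from 0.02 to 0.12 and 0.10, and that of the subunits from 0.02 to 0.11 and 0.12. By complex these medians became 0.13 and 0.14 (I), -0.042 and -0.040 (II), 0.22 and 0.22 (III), 0.048 and 0.045 (IV) and 0.13 and 0.13 (V), from 0.03, -0.14, 0.12, -0.05 and 0.03. Without a filter the median of complex V was 0.021. With a library left out the median lay between -0.028 and 0.060 for all subunits, between -0.0050 and 0.10 for complex I, between -0.17 and -0.12 for complex II, between 0.015 and 0.13 for complex III, between -0.096 and 0.0062 for complex IV and between -0.0089 and 0.028 for complex V.

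Changes near 0 took the other sign with library size alone and with limma on log2(TPM + 1): Cox4i1 (0.012 and 0.017), Cox6a1 (0.0074 and 0.0095), Cox6b1 (0.027 and 0.031), Cox8a (0.034 and 0.029) and Ndufs1 (0.065 and 0.057). In the same settings the median of all genes moved up from 0.02, to 0.12 and 0.10. Cox5a was at -0.0041 without a filter and at -0.00070 with the filter at 5 CPM. With a library left out the sign also turned for Atp5a1 (-0.080 to 0.085), Atp5b (-0.090 to 0.17), Atp5g2 (-0.44 to 0.037), Cox5a (-0.11 to 0.097), Cox6a2 (-0.66 to 2.10), Cox6b1 (-0.17 to 0.020), Cox7a2 (-0.11 to 0.16), Cox7b (-0.0090 to 0.056), Cox8a (-0.23 to 0.077), Ndufs1 (-0.18 to 0.095) and Ndufv1 (-0.0071 to 0.22). The cause was not tested. Of the other values of single genes over all alternatives, 17 newly passed and 10 no longer passed.

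The mouse numbers of the labels belong to different mice. The deviations of same-numbered libraries from their genotype means correlated at 0.17 over all genes tested, and 2 pairs do not show a pairing. With the number as a replicate block 2 subunits were higher and 3 lower, Cycs and Cox7a1 being added, and the 3 calls of the fit without it were kept. Mapkapk5 lay between -0.89 and -0.78 with a library left out.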

Other observations

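Lonp1, named after its values were seen, encodes a mitochondrial matrix protease known to degrade COX4-1 and to be induced with Cox4i2 by HIF-1. It was at 351 and 352 CPM in WT and 190 and 126 in KO (a log2 change of -1.16 ± 0.21 SE, edgeR adjusted p = 0.0267), so it fell. Of the regulators that did not pass, Gabpb1 had the smallest p, with 53.0 and 57.6 CPM in WT and 74.0 and 80.7 in KO (0.48, edgeR adjusted p = 0.0551). Hif1a was at 1367 and 1291 CPM in WT and 912 and 996 in KO (-0.48, adjusted p = 0.0920). The PGC-1 family, coactivators of mitochondrial genes, lay on both sides of 0. Ppargc1a was at 0.923 and 1.098 CPM in WT and 0.194 and 0.348 in KO (-1.88, adjusted p = 0.0677), and at such low levels its change rests on few counts. Ppargc1b was at 4.72 and 4.496 CPM in WT and at 8.37 and 7.16 in KO (0.75, adjusted p = 0.0900). Pprc1 was at 125 and 110 CPM in WT and 222 and 163 in KO (0.71, adjusted p = 0.0583).

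Ndufb4c, a near copy of Ndufb4 that the symbol rule leaves out, was at 7.69 and 5.33 CPM in WT and 9.29 and 11.3 in KO (a log2 change of 0.66, adjusted p = 0.156). Ndufb4 was at 27.7 and 30.0 CPM in WT and 33.3 and 38.6 in KO (0.32, adjusted p = 0.190). Counts of both genes were not all whole, and their values are uncertain to that extent.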
